A study of Ovis aries with 6 samples.

Results

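Short stretches of partly methylated DNA that were listed for fetal perirenal fat and for no overlapping place in lamb perirenal fat were found crowded together in 424 of the 122616 fixed 20 kb bins of the sheep autosomes. The stretches are low-methylated regions (LMRs), and a fetal LMR was counted as fetal-only when it shared no base with an unmethylated region (UMR) or LMR of the lamb list. Lamb-only LMRs were defined in the reverse way. A bin, cut from base 1 of each chromosome, was kept when the midpoints of at least 3 fetal-only LMRs and of no lamb-only LMR fell in it, and such bins are called cluster bins here. Of the cluster bins, 364 held 3 fetal-only LMRs, 54 held 4, 4 held 5, 1 held 6 and 1 held 7, a total of 1341 of the 31855 autosomal fetal-only LMRs. Coordinates follow the sheep build Oar_v3.1, and bins are named by position because no gene annotation of that build was used here.

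The DNA came from fat around the kidney of 3 lambs and 3 fetuses, each a separate animal and a separate bisulfite library. All 6 were wild-type, pure-bred Merino sheep that received no treatment. The lambs were 89 days old per the sample labels and 80 days per the design text, and their fat is labelled white adipose. The fetuses were at 132 days post conception, with term at 150 days, and their fat is labelled brown adipose. The sample descriptions end in VEH for each lamb and in TV for each fetus, and the meaning of these tags, which the sources do not give, cannot be told apart from stage. Tissue type could not be checked against marker genes, since only DNA methylation was measured.

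In mammals most CpG dinucleotides away from promoters are methylated. LMRs are the exception of intermediate level, often at distal regulatory elements such as enhancers, whereas UMRs are mostly CpG-rich promoters. The fat around the kidney of newborn sheep makes heat with brown fat and is later replaced by white fat, and the series title names this transition as its subject. The methylation level used throughout is the percentage of reads over a set of CpG positions that were methylated, from CpGs with at least 5 covering reads in each of the 6 animals. In bulk tissue a higher level can mean more methylated alleles within 1 kind of cell or a different mix of cells, and these cannot be told apart.

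Mean coverage of an autosomal CpG was 8.00, 5.22 and 5.59 reads in lambs 1 to 3, against 7.45, 5.38 and 6.60 reads in fetuses 1 to 3. In the cluster bins 40816 of 152212 CpG positions met the minimum of 5 reads. A tested cluster bin had a median of 841 covering reads per animal, against 366 over all tested bins. Lamb 2 had the highest level of the 6 animals over whole bins, outside listed regions, in fetal-only LMRs and in regions listed in both stages, both in cluster bins and in all other bins. The region lists give positions only and 1 list per stage, so they carry no measure of the spread between animals. The lists were made from these same 6 animals. Levels inside fetal-only LMRs and over whole cluster bins are therefore given as descriptions, and the comparisons rest on CpGs outside every UMR, LMR and DNA methylation valley (a long unmethylated stretch) of either list. These CpGs come from the same animals and some lie directly beside the LMRs that chose the bins. The comparisons of level and gap outside listed regions are thus not independent of the rule either.

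Inside the fetal-only LMRs of the cluster bins the level was 50.8, 51.9 and 49.2% in lambs, against 38.7, 39.4 and 38.1% in fetuses. The lambs were thus at an intermediate level too, 50.6% ± 1.37 against 38.8% ± 0.668 in fetuses (SD, n = 3 each), and the fetal-only LMRs were not fully methylated after birth. Fetal-only LMRs of all other bins were close to these values, at 49.0% ± 1.31 in lambs and 38.5% ± 1.37 in fetuses. Of the 1341 LMRs in cluster bins, 396 had at least 3 usable CpGs. Among these the mean was higher in lambs in 365 (92.2%), the animals of the stages did not overlap in 113 (28.5%) with lambs higher, and the median difference was 11.4 percentage points. Fetal-only LMRs standing alone in a bin had a median difference of 10.7 points, and 26.3% of the 4472 measured were without overlap.

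The LMRs of a cluster were short and spread over the bin. Their median length was 374 bases (quartiles 213 and 692), against 622 bases for fetal-only LMRs alone in a bin, and both kinds held a median of 6 CpGs. Neighbouring fetal-only LMRs of a cluster bin lay a median of 3170 bases apart, and the first and last spanned a median of 10961.5 bases. Together they covered a median of 6.54% of the bin, so most of a cluster bin lay outside them. Coverage limits what can be said within a bin: 154 cluster bins had no fetal-only LMR with 3 usable CpGs and 20 had at least 3 such LMRs. In 15 of those 20 bins every measured fetal-only LMR had the higher mean in lambs.

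Over whole cluster bins the level was 69.8, 71.8 and 70.8% in lambs, against 68.8, 69.0 and 68.3% in fetuses. Each lamb stood above each fetus, and the difference of 2.07 points includes the LMRs that chose the bins. Outside all listed regions the level was 77.0, 78.9 and 78.0% in lambs, against 76.8, 76.9 and 76.7% in fetuses. Here too the animals did not overlap, though the lowest lamb lay close to the highest fetus. In the 364 cluster bins with exactly 3 fetal-only LMRs the stages did overlap. Over all cluster bins the means were 78.0% ± 0.961 in lambs and 76.8% ± 0.110 in fetuses (SD, n = 3 each), a difference of 1.19 points. The exact permutation test over the 6 animals, two-sided, gave p = 0.1, and 3 animals against 3 cannot give a lower value, so no comparison of this kind could pass 0.05. Without lamb 2 the difference was 0.721 points and without lamb 1, the lowest of the lambs, it was 1.70 points.

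**Figure D1:**
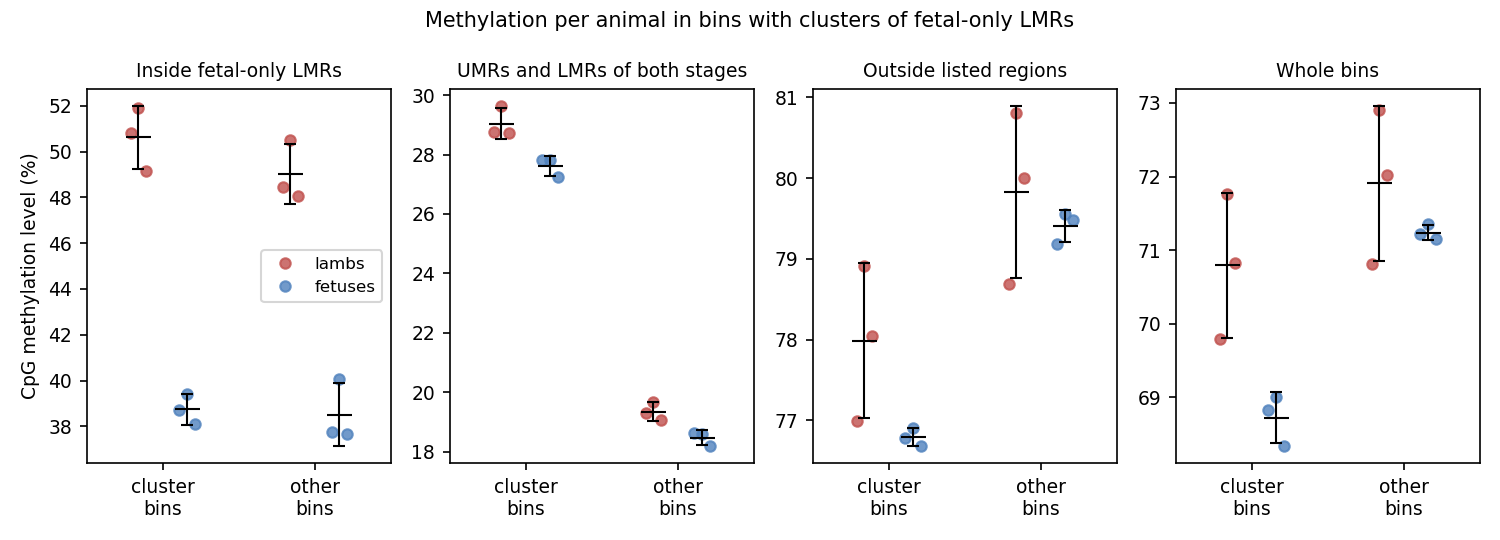
CpG methylation level (%, each panel with its own axis) of each lamb (red) and each fetus (blue) in the 424 cluster bins and in all other autosomal bins, with the mean as a long line and the SD as bars. Outside listed regions the lambs stood above the fetuses in cluster bins, 78.0% against 76.8%, and overlapped them in other bins, 79.8% against 79.4%.

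Bins without a cluster showed a smaller difference, within the spread of the lambs. Outside listed regions their level averaged 79.8% ± 1.06 in lambs and 79.4% ± 0.198 in fetuses, a difference of 0.421 points (SD, n = 3 each; exact permutation p = 0.6, two-sided). To remove a shift that an animal carries across its whole genome, the level of the other bins was subtracted from that of the cluster bins within each animal. The resulting gap was -1.70, -1.89 and -1.95 points in lambs 1 to 3, against -2.40, -2.66 and -2.81 points in fetuses 1 to 3. Cluster bins were thus less methylated than other bins in every animal, and less so in each lamb than in each fetus, with groups well apart for their spread. The gap averaged -1.85 ± 0.131 points in lambs and -2.62 ± 0.207 points in fetuses, a difference of 0.774 points (SD, n = 3 each; exact permutation p = 0.1, two-sided). Leaving out any 1 animal gave between 0.660 and 0.893 points, so the gap, unlike the level, moved little without lamb 2.

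Several features of the bins differed together with the cluster rule, and the gap was recomputed within each of them. Cluster bins had a median of 319.5 CpG positions, against 162 in other bins. The median was 226 in bins with 2 fetal-only LMRs and 289 in the 228 bins with at least 3 lamb-only and no fetal-only LMR. Of the 424 cluster bins, 259 were among the 24511 bins with 272 or more CpGs, as were 121 of those 228. Within those CpG-rich bins the gap differed by 0.731 points between lambs and fetuses, and within bins with fewer CpGs by 0.820 points. Coverage also differed: the median ratio of lamb to fetal coverage was 0.911 in cluster bins and 1.02 in other bins. It was 0.922 in bins with at least 3 lamb-only and no fetal-only LMR, close to that of the cluster bins. Among bins with a ratio under 1 (333 cluster bins) the gap differed by 0.761 points, and among those with a ratio of 1 or more (91 cluster bins) by 1.05 points. The gap itself changed with the ratio. Under 1 it was from -1.83 to -2.08 points in lambs and from -2.57 to -2.86 in fetuses. At 1 or more it was from -5.87 to -6.30 points in lambs and from -6.48 to -7.43 in fetuses. In each of these subsets every lamb lay above every fetus (exact permutation p = 0.1, two-sided, 3 animals each). These subsets were chosen after seeing the data.

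Classes of bins with more fetal-only LMRs had larger lamb minus fetal differences, and the bins just outside the rule followed the same order. Outside listed regions the difference was 1.63 points in the 60 bins with 4 or more, 1.10 points in the 364 bins with exactly 3, 0.808 points in the 2723 bins with 2, and 0.584 points in the 17164 bins with 1. Only the 60 bins with 4 or more had no overlap of the stages among these classes. In the 364 bins with exactly 3, lamb 1 at 77.25% lay just below fetus 2 at 77.30%. In the 253 bins that had at least 3 fetal-only LMRs but also a lamb-only LMR it was 0.929 points. Without the called bin on chromosome 11 from 5800001, the bins with 4 or more differed by 1.37 points. These are values of nested or neighbouring classes from the same animals, given without a test. The classes are ranked by the number that the rule counts, and more LMRs place more CpGs directly beside one. Within 200 bases of a fetal-only LMR lay 3320 of 34058 CpGs in cluster bins and 26895 of 834923 in bins with 1. The order, and the comparison with the bins with 2 that follows, are thus not independent of the rule. Set directly against the bins with 2, the cluster bins stood at -0.553 ± 0.0836 points in lambs and -0.940 ± 0.190 points in fetuses (SD, n = 3 each), and this gap differed by 0.387 points between the stages (exact permutation p = 0.1, two-sided).

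In the 228 bins with at least 3 lamb-only and no fetal-only LMR the stages separated in the gap but overlapped in the level. Outside listed regions their level averaged 77.3% ± 0.712 in lambs and 77.7% ± 0.348 in fetuses, with overlap and a difference of -0.349 points (SD, n = 3 each; exact permutation p = 0.6, two-sided), and single bins had a median difference of 0.0075 points. Their gap to all bins without a fetal-only cluster was -2.18, -3.02 and -2.29 points in lambs, against -1.77, -1.48 and -1.93 points in fetuses, a difference of -0.770 points (exact permutation p = 0.1, two-sided, 3 animals each). The cluster bins of fetal-only LMRs stood 0.483, 1.13 and 0.339 points above these bins in lambs 1 to 3, and were at -0.627, -1.18 and -0.877 points relative to them in fetuses 1 to 3. The order of the 2 kinds of cluster bin was therefore opposite in the stages, with a difference of 1.54 points (exact permutation p = 0.1, two-sided, 3 animals each). The lists that chose the bins came from the same animals, so the opposite direction is not independent of the rule.

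**Figure D2:**
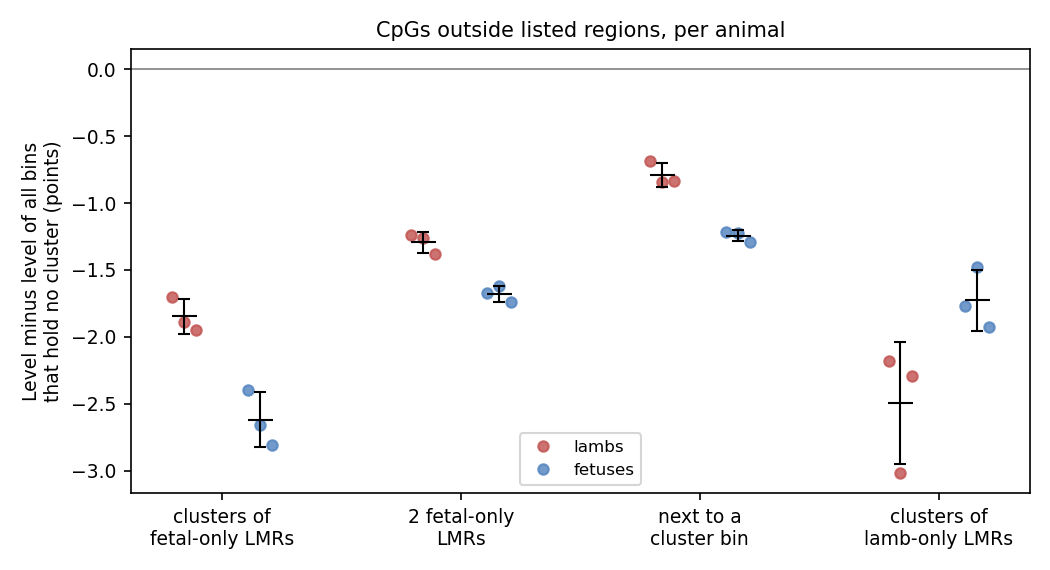
Level outside listed regions minus that of all bins without a cluster of fetal-only LMRs (percentage points), for each lamb (red) and each fetus (blue) in 4 classes of bins, with mean and SD. In clusters of fetal-only LMRs the lambs averaged -1.85 points and the fetuses -2.62, and in clusters of lamb-only LMRs the order of the stages was turned round, with a difference of -0.770 points.

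UMRs and LMRs listed in both stages also lay in the cluster bins and were not counted by the rule. The overlap of the lists that defined the stage-only LMRs also defined these shared regions. Their levels are thus not independent of the rule either. Cluster bins held a mean of 1.40 fetal LMRs that overlap a lamb UMR or LMR, against 0.623 in other bins, and 286 of the 424 (67.5%) held at least 1. Clusters of lamb-only LMRs held a mean of 1.39 and bins with 2 fetal-only LMRs 1.06. The level in the regions listed in both stages was 28.8, 29.6 and 28.7% in lambs, against 27.8, 27.8 and 27.2% in fetuses. Each lamb stood above each fetus, with means of 29.0% ± 0.515 in lambs and 27.6% ± 0.341 in fetuses and a difference of 1.42 points (SD, n = 3 each; exact permutation p = 0.1, two-sided). Shared regions of other bins had a lower level, 19.3% in lambs and 18.5% in fetuses, and differed by 0.874 points. Levels between these were found in bins with 2 fetal-only LMRs, 24.8% in lambs and 23.2% in fetuses. Clusters of lamb-only LMRs were also between, at 25.1% in lambs and 24.9% in fetuses. The gap between shared regions of cluster and other bins was 9.70 ± 0.239 points in lambs and 9.16 ± 0.0993 points in fetuses, so the excess over other bins was 0.545 points larger in lambs (SD, n = 3 each; exact permutation p = 0.1, two-sided). Shared regions of bins with 2 fetal-only LMRs differed by 1.57 points and those of bins beside a cluster bin by 1.47 points. Set against the bins with 2, this gap differed by -0.152 points between the stages (exact permutation p = 0.4, two-sided, 3 animals each). The larger difference was thus not particular to cluster bins. A shared UMR was present in 94 cluster bins. Outside listed regions those 94 differed by 1.28 points between lambs and fetuses and the 330 without one by 1.16 points. In the 94 the stages did not overlap, whereas in the 330 lamb 1 at 76.927% lay just below fetus 2 at 76.932%.

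The difference outside listed regions was largest beside the fetal-only LMRs and continued beyond them. At 1 to 200 bases from the nearest fetal-only LMR the level was 70.4, 72.0 and 70.1% in lambs, against 67.7, 67.4 and 67.0% in fetuses, a difference of 3.47 points (exact permutation p = 0.1, two-sided, 3 animals each). It was 1.07 points at 201 to 500 bases, 1.11 at 501 to 1000, 0.953 at 1001 to 2000 and 1.10 at 2001 to 5000 bases, where the lambs and fetuses overlapped. It was 0.342 points at 5001 to 20000 bases, the class in which bins with 1 fetal-only LMR were at 0.485 points. In bins with 1 fetal-only LMR the difference was 2.69 points in the nearest 200 bases, 0.765 points at 201 to 500 bases and between 0.443 and 0.563 points farther out. Up to 5000 bases each class of distance thus had the larger difference in cluster bins, and beyond 5000 bases the order was turned round. With CpGs over 2 kb from any fetal-only LMR alone, an alternative added after seeing the data, the gap to other bins differed by 0.484 points, with every lamb above every fetus (exact permutation p = 0.1, two-sided, 3 animals each).

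Neighbouring bins shared part of the difference. Of the 830 non-cluster bins directly beside a cluster bin, the level outside listed regions was 78.0, 80.0 and 79.2% in lambs, against 78.0, 78.3 and 78.2% in fetuses. The stages overlapped, and the difference of 0.876 points (exact permutation p = 0.3, two-sided, 3 animals each) was 0.448 points without lamb 2 and 1.41 points without lamb 1. Relative to the other bins, the gap of these neighbours was -0.686, -0.844 and -0.838 points in lambs, against -1.22, -1.22 and -1.29 points in fetuses. On this scale the stages did not overlap, with a difference of 0.456 points (exact permutation p = 0.1, two-sided, 3 animals each). By distance the difference was 0.948 points 20 kb before and 0.808 points 20 kb after the cluster bin, 0.708 and 0.540 points at 40 kb, and between 0.412 and 0.735 points from 60 to 200 kb. The highest of these last values was at 200 kb, and all autosomal bins without a cluster differed by 0.421 points. The values beside the cluster bins were thus the highest of the neighbours, while those farther out showed no steady decline with distance.

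**Figure D3:**
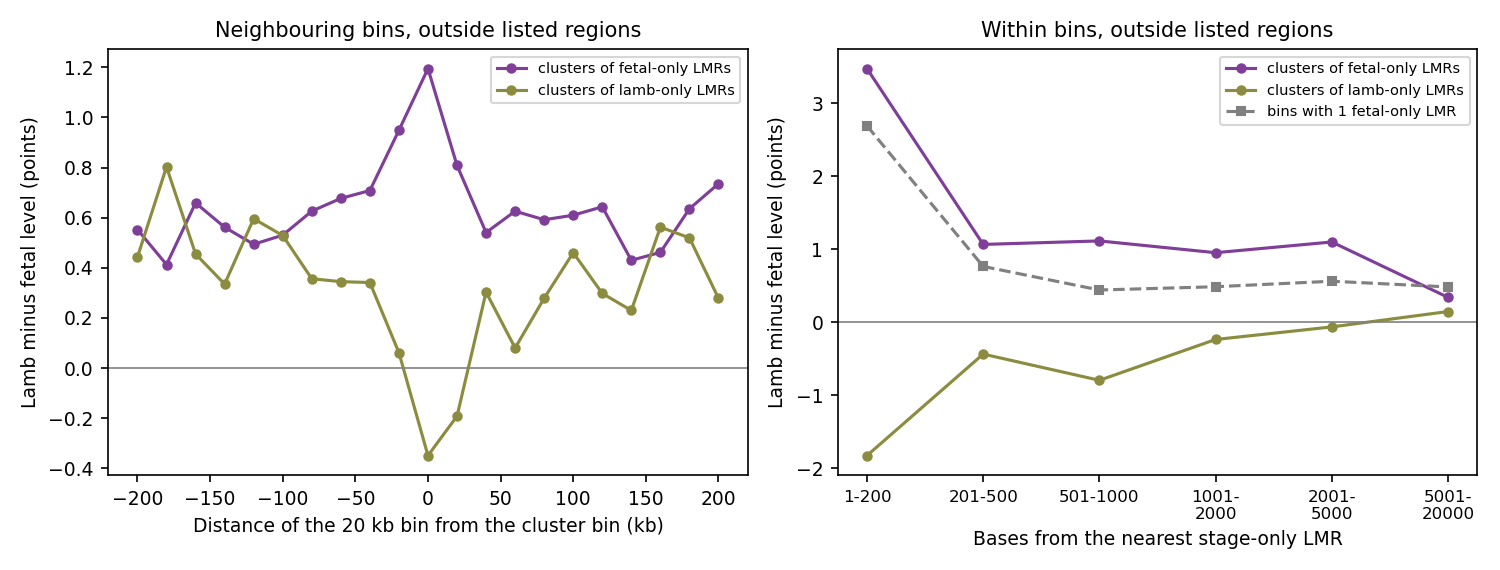
Lamb minus fetal level outside listed regions (percentage points) against distance in kb of the 20 kb bin from the cluster bin (left) and against distance in bases from the nearest LMR of 1 stage only (right). The difference peaks at 1.19 points in the cluster bin and at 3.47 points within 200 bases of a fetal-only LMR, and clusters of lamb-only LMRs show the opposite sign near the centre.

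Further fetal-only LMRs and further clusters were more frequent around cluster bins than over the genome. The bins 20 kb before and after a cluster bin held means of 0.591 and 0.587 fetal-only LMRs, against 0.260 over all bins, and means of 0.378 and 0.410 lamb-only LMRs, against 0.214 over all bins. Directly beside a cluster bin 1.42% of the bins on either side were cluster bins themselves, against 0.346% of all bins. Beside a cluster of lamb-only LMRs, 0.877% of the bins before it and 1.32% of those after it were cluster bins. Around cluster bins the share varied with distance without a trend, from 2.38% at 60 kb before the cluster bin to 0.474% at 100 kb after it. In all, 6 pairs of cluster bins were adjacent, 412 had no adjacent cluster bin, and no run of 3 occurred. Within 5 bins (100 kb) of another cluster bin lay 62 of the 424. Lamb-only LMRs were thus also more frequent around the clusters than over the genome.

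Cluster bins were unevenly placed along the genome. Chromosomes 24 and 11 had the highest shares of cluster bins, 1.09% (23 bins) and 0.899% (28 bins), chromosome 14 followed with 0.574% (18 bins), and chromosome 7 had the lowest share with 0.160% (8 bins). The large chromosome 3 had the most cluster bins, 50, at a share of 0.446%. Clusters of lamb-only LMRs also had their highest share on chromosome 24, 0.523%, and were at 0.353% on chromosome 11, against 0.186% of all bins. Within 2 Mb of a chromosome end lay 73 cluster bins, 17.2% of them against 4.25% of all bins. Bins in that zone were cluster bins in 1.40% of cases and bins over 10 Mb from an end in 0.220%. The bins near the ends were also richer in CpGs, with a median of 364 positions against 150 beyond 10 Mb, and the lamb-only clusters were placed in a similar way, with 15.8% of them in the end zone. The gap between cluster and other bins differed by 0.763 points between lambs and fetuses in the end zone and by 0.747 points away from it, each with every lamb above every fetus (exact permutation p = 0.1, two-sided, 3 animals each).

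**Figure D4:**
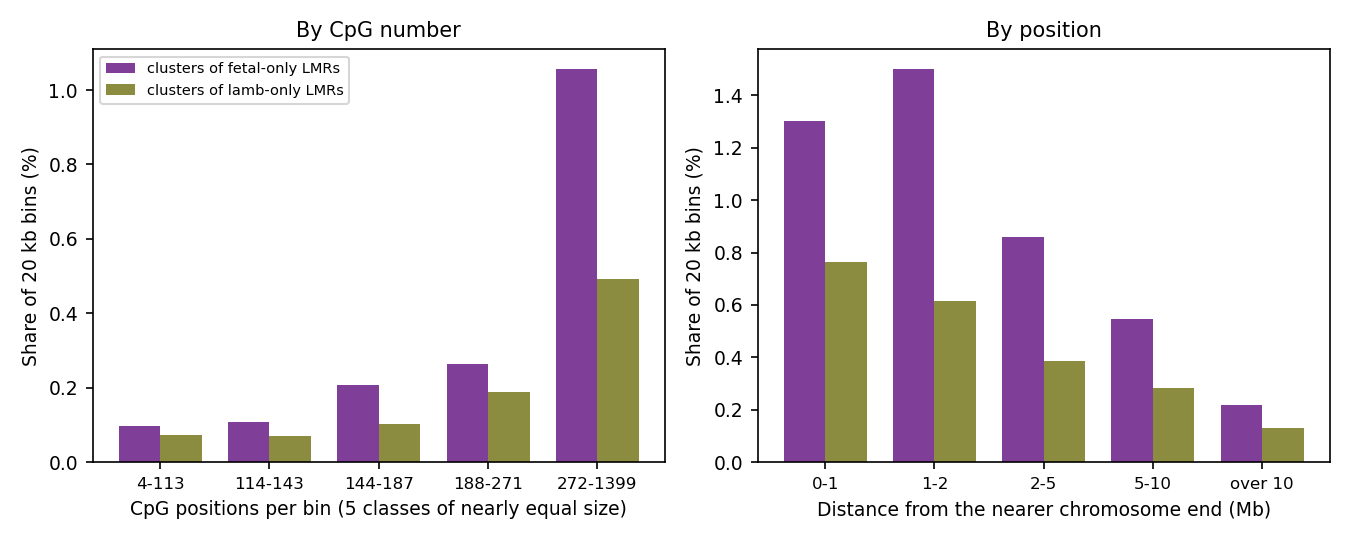
Share of 20 kb bins (%) that are clusters of fetal-only or of lamb-only LMRs, by the number of CpG positions in the bin in 5 classes of nearly equal size (left) and by distance from the nearer chromosome end in Mb (right). Of the bins with 272 or more CpGs 1.06% were clusters of fetal-only LMRs, against 0.0979% of those with 113 or fewer, and lamb-only clusters were the less frequent kind in every class, with 0.494% and 0.0734% in the same 2 classes of CpG number.

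Single bins were tested with a quasi-binomial logistic model of methylated and unmethylated reads over all bins with at least 10 usable CpGs, with dispersions moderated as in limma and p-values adjusted by the Benjamini-Hochberg method over all bins. To be called, a bin needed a difference of 5 points or more and an adjusted p under 0.05. Over whole bins 1 of the 414 cluster bins tested was called, with 0.0214% of all 112033 bins called (24 bins). It was higher in lambs, with 0.0116% of all bins called in that direction and 0.00982% called lower. At an unadjusted p under 0.05 the lambs were higher in 85 cluster bins (20.5%), with 4.36% of all bins, and lower in 0, with 2.14% of all bins and 6.5% in either direction. The animals did not overlap with lambs higher in 100 cluster bins (24.2%), with 7.6% of all bins, and with lambs lower in 2, with 3.85% of all bins. The mean was higher in lambs in 342 cluster bins (82.6%), with 58.9% of all bins, and the median difference was 1.89 points, against 0.535 points over all bins. Because the fetal-only LMRs are part of these whole bins, nothing is read from these shares.

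Outside listed regions none of the 407 cluster bins tested was called by the quasi-binomial model, with 0.00453% of all 110369 bins called (5 bins), and the smallest adjusted p among cluster bins was 0.212. limma and edgeR called 0 cluster bins there as well. At an unadjusted p under 0.05 in the quasi-binomial model the lambs were higher in 44 cluster bins (10.8%), with 3.78% of all bins, and lower in 0, with 2.09% of all bins and 5.87% in either direction. At the same unadjusted threshold limma had lambs higher in 21 cluster bins (5.16%), with 3.49% of all bins, and lower in 0, with 2.06% of all bins. edgeR had lambs higher in 34 (8.35%), with 3.58% of all bins, and lower in 0, with 2.02% of all bins. The excess over the background in the lamb-higher direction was thus smallest by limma, where the share over both directions was below that of all bins. The animals did not overlap with lambs higher in 63 cluster bins (15.5%), with 6.98% of all bins, and with lambs lower in 3, with 3.9% of all bins. The mean was higher in lambs in 299 cluster bins (73.5%), with 57.9% of all bins. Of bins with 2 fetal-only LMRs, 6.71% had lambs higher and 1.38% lower at an unadjusted p under 0.05 in the quasi-binomial model. Lambs were higher without overlap in 10.6% of them, lower without overlap in 3.17%, and higher by mean in 66.3%. Cluster bins had a median of 682 reads per animal here, against 325 over all tested bins. The part of read number in these shares was not tested. The median difference was 1.04 points (quartiles -0.0991 and 2.37) and single bins ran from -5.40 to 12.9 points. Over all bins the median was 0.448 points (quartiles -1.09 and 2.03), and over bins with 2 fetal-only LMRs it was 0.869 points. Part of the median of the cluster bins was thus shared with all bins. The quartiles overlapped widely, and single cluster bins did not pass the correction.

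The cluster bin called over its whole length, fetal-only LMRs included, was chromosome 11 from 5800001 to 5820000, with 5 fetal-only LMRs among 239 CpG positions. Over the whole bin the level was 72.0, 82.6 and 59.0% in lambs, against 55.3, 55.3 and 53.4% in fetuses, a difference of 16.5 points (adjusted p = 0.0104 in the quasi-binomial model moderated as in limma, 3 animals each). The call was not made with minimums of 3, 1 or 10 reads or by limma, and it includes the LMRs by which the bin was chosen. All lambs stood above all fetuses, and the lambs differed far more among themselves than the fetuses did. The model rests mostly on spread pooled over all bins, so the spread among the lambs in this bin entered its p-value only in part. Outside listed regions the level was 80.7, 89.9 and 66.7% in lambs, against 67.2, 67.7 and 63.7% in fetuses; lamb 3 overlapped the fetuses there, and the difference of 12.9 points was not called (adjusted p = 0.212 in the same model). Without lamb 2 the whole-bin difference was 11.9 points and the difference outside listed regions 7.63 points. Over all reads in each of the 5 fetal-only LMRs, lamb 2 was highest of the 6 animals, from 65.4 to 97.7%, and lamb 1 came next, from 55.7 to 63.3%. Lamb 3 ranged from 30.9 to 48.3% and the fetuses from 23.9 to 49.6%.

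Read coverage of that bin also divided the animals. Relative to each animal's autosomal mean it was 1.28, 1.08 and 2.38 in lambs 1 to 3, against 2.70, 2.29 and 2.63 in fetuses 1 to 3. Lambs 1 and 2, the animals with the highest levels, were near their genome mean, while lamb 3 and the fetuses were above 2 times it. The bin directly after it, 20 kb on, had coverage of 0.908, 0.867 and 1.29 in lambs and of 1.25, 1.11 and 1.14 in fetuses. Lambs 1 and 2 were again the lowest there, but the split was smaller and no animal was above 2 times its mean. The bin 20 kb before was similar to the called bin, with coverage of 1.16, 0.852 and 2.17 in lambs and of 2.44, 1.86 and 2.48 in fetuses, and so was the bin 40 kb after it, with 1.34, 1.08 and 2.12 in lambs and 2.17, 2.11 and 2.29 in fetuses. The part of coverage in the result of this bin was not tested. Coverage over 2 times the autosomal mean, averaged over the 6 animals, was found in 3 cluster bins (0.708%) and in 0.0998% of other bins. Without the called bin, an alternative added after seeing the data, the difference outside listed regions was 1.15 points over the cluster bins and the gap to other bins differed by 0.728 points.

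**Figure D5:**
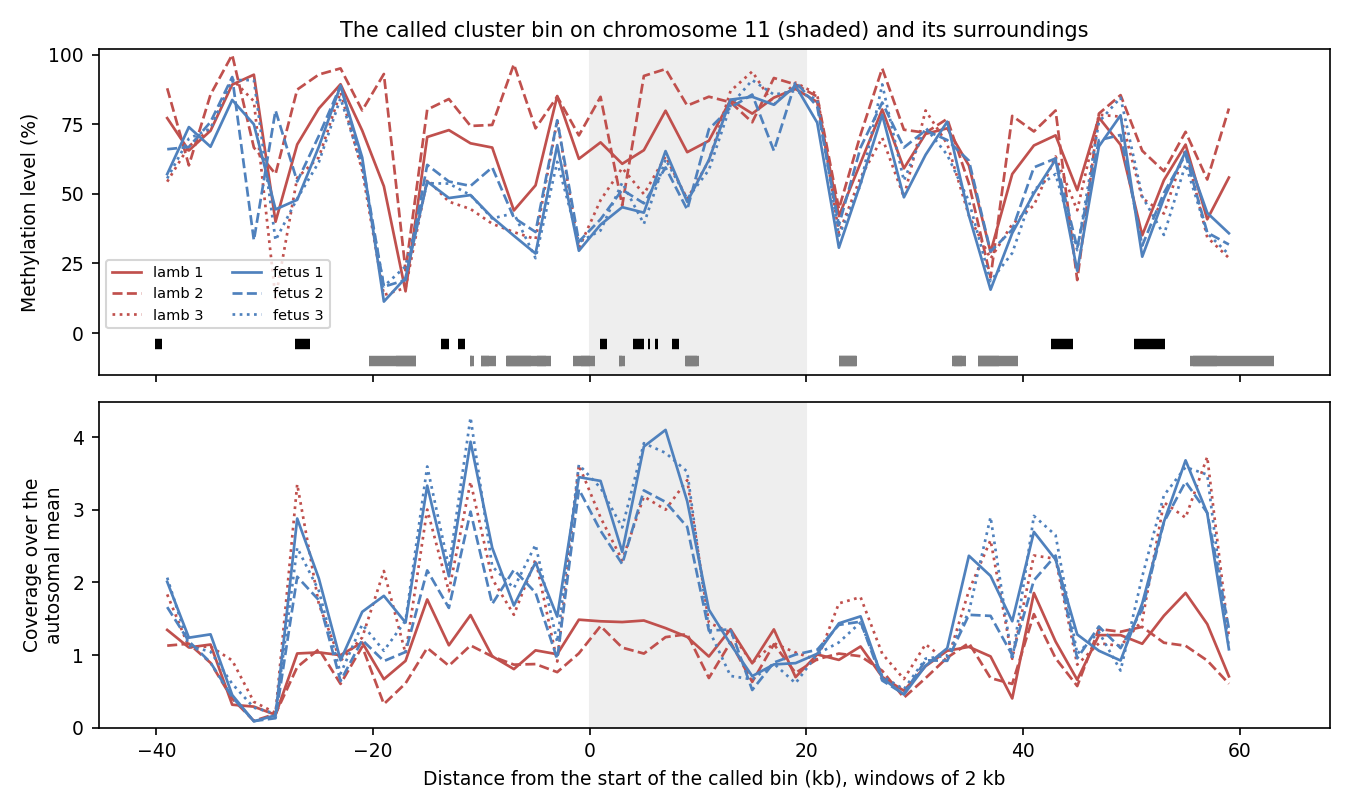
Methylation level (%, upper panel) and coverage over the autosomal mean (lower panel) in 2 kb windows against distance in kb from the start of the called bin (shaded), with red lines for lambs and blue lines for fetuses, solid, dashed and dotted for animals 1 to 3. Black bars mark fetal-only LMRs and grey bars UMRs and LMRs listed in both stages. Over the whole bin lambs 1 and 2 had levels of 72.0 and 82.6% and coverage of 1.28 and 1.08, while lamb 3 and the fetuses had 53.4 to 59.0% and coverage of 2.29 to 2.70; single windows depart from this, such as that at 3 kb, where lamb 2 was at 45.8%.

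The bins with the most fetal-only LMRs ranged widely in their differences, from the called bin on chromosome 11, the largest of all, to values near 0 outside listed regions. Levels of single LMRs in named bins are over all reads, since several have few or no CpGs with 5 reads in each animal. The 7 LMRs of chromosome 26 from 20001 to 40000, 0.03 Mb from the chromosome end, had mean levels from 36.5 to 52.0% in lambs and from 27.7 to 44.9% in fetuses. Each had the higher mean in lambs, by 2.31 to 11.1 points. The whole bin was at 58.5, 63.1 and 59.5% in lambs, against 60.0, 58.4 and 59.2% in fetuses, with overlap, and outside listed regions the difference was -0.211 points, which was 0.322 points with a minimum of 3 reads. The 6 LMRs of chromosome 11 from 160001 to 180000 also each had the higher mean in lambs, by 4.62 to 18.7 points, and the whole bin differed by 1.38 points. Among the other bins with 5 fetal-only LMRs, chromosome 18 from 63240001 to 63260000 had whole-bin levels of 77.5, 76.5 and 74.2% in lambs, against 73.5, 68.6 and 70.4% in fetuses, without overlap. The 5.29 points of that bin did not pass the correction (adjusted p = 0.433 in the quasi-binomial model moderated as in limma, 3 animals each). Chromosome 3 from 130280001 to 130300000 differed by 4.38 points over the whole bin and chromosome 11 from 16180001 to 16200000 by 1.37 points, which was -0.204 points without fetus 2. The bins named with 4 fetal-only LMRs, chromosome 1 from 20780001 to 20800000 and from 21900001 to 21920000, differed by 1.60 and 1.77 points over the whole bin.

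The cluster bins with the largest differences outside listed regions were taken from those with at least 20 usable CpGs there and no overlap between the stages. Of 377 cluster bins with that many, 57 (15.1%) were without overlap and higher in lambs, with 7.05% of all bins under the same minimum, and 3 were lower, with 3.99% of all bins. Chromosome 15 from 70000001 to 70020000 led with 78.1, 78.3 and 75.5% in lambs, against 70.2, 65.7 and 73.2% in fetuses, a difference of 7.60 points over 37 CpGs. In chromosome 14 from 59700001 to 59720000 the level was 71.6, 72.0 and 70.1% in lambs, against 69.0, 61.9 and 60.2% in fetuses, and in this bin the fetuses were the more variable. Chromosome 24 had a pair of such bins: from 24680001 to 24700000 the level was 73.2, 79.4 and 74.4% in lambs, against 71.4, 67.7 and 65.2% in fetuses, and from 23400001 to 23420000 the difference was 6.95 points. Chromosome 15 from 660001 to 680000 differed by 7.46 points, and chromosome 2 from 221460001 to 221480000 and from 107320001 to 107340000 by 6.01 and 5.82 points. Chromosome 3 from 133820001 to 133840000 was at 72.8, 71.9 and 72.0% in lambs, against 69.7, 66.0 and 63.7% in fetuses. The 5.77 points of that last bin were 0.355 points with a minimum of 3 reads, under which the bin from 23400001 on chromosome 24 had 3.01 points and that from 221460001 on chromosome 2 had 2.70 points. With that minimum the other 5 bins kept 4.30 to 6.24 points. All 8 bins held exactly 3 fetal-only LMRs, none held a deposited differentially methylated region, and their adjusted p-values in the quasi-binomial model moderated as in limma were from 0.410 to 0.885. As they were picked for size and separation, their differences are descriptions.

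The authors' deposited lists of differentially methylated regions (DMRs) touched 14 cluster bins. The midpoint of a region of the hyper list fell in 12 of them (2.83%), with 0.417% of all bins, and that of the hypo list in 2 (0.472%), with 0.393% of all bins. All 8 bins named by this rule held 1 region of the hyper list, and in each region the mean over all reads was higher in lambs. The widest of the 8 DMRs, on chromosome 26 from 23157641 to 23158305, was at 51.9, 63.5 and 54.7% in lambs, against 36.7, 39.0 and 34.8% in fetuses, and overlapped no fetal-only LMR. On chromosome 3 from 13621138 to 13621508 the level was 57.7, 46.7 and 45.9% in lambs, against 18.9, 19.4 and 20.4% in fetuses, again in no fetal-only LMR. The other 6 DMRs overlapped a fetal-only LMR of their bin. Among these, chromosome 17 from 64937122 to 64937391 was at 59.7, 68.8 and 65.1% in lambs, against 37.4, 32.9 and 37.8% in fetuses, and chromosome 14 from 59283122 to 59283555 at 63.4, 64.3 and 56.5% in lambs, against 47.2, 24.4 and 35.8% in fetuses. In the bin of the last of these, from 59280001 to 59300000, the whole-bin difference was -2.47 points, but 0.944 points with a minimum of 3 reads and 0.072 points without lamb 2, so its direction was not stable. The DMRs on chromosomes 2, 12, 24 and the second one on chromosome 14 had means of 58.3, 72.8, 64.0 and 76.4% in lambs, against 39.0, 55.0, 40.9 and 54.3% in fetuses. The stages did not overlap in those on chromosomes 2 and 12. On chromosome 24, with 3 CpGs, lamb 1 was at 45.5% and fetus 2 at 57.9%. In the second one on chromosome 14, lamb 1 was at 65.6% and fetus 3 at 67.3%. DMRs and LMRs were both called by the authors from these animals, so their overlap is a description.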

How the data were processed

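DNA of 6 animals was measured by whole-genome bisulfite sequencing, 1 library each. The authors deposited raw counts per CpG, methylated and covering reads of every animal, at 26377052 positions, of which 24936679 lie on the 26 autosomes. Reads were mapped to Oar_v3.1, per the labels' design text. The builds Oar_v3.1 and hg19 and the tools Picard and BWA are named in the submitters' processing notes, with no role for any. Sources used here give neither the methylation caller nor the way regions were called. The lists (UMRs, LMRs and valleys per stage, DMRs as hyper and hypo) hold positions only.

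Levels are summed methylated over summed covering counts of the deposited table, over CpGs with at least 5 reads in each animal. Class levels were compared by exact permutation, two-sided. Bins with at least 10 usable CpGs were tested by the quasi-binomial model, lamb against fetal, with dispersion moderated as in limma's squeezeVar, not below 1, and tried on simulated counts. Each animal is a separate sheep, and reads carry no molecule tags. Permutation p-values cover the spread between these animals alone. Those of the quasi-binomial model rest mostly on the spread between them pooled over all bins. The weight of this pooled spread, in degrees of freedom, was 32.4 for whole bins and 46.7 outside listed regions. The cluster bins, the classes compared and the naming rules were chosen with earlier results of these data known. Bins were named as the 8 with the most fetal-only LMRs, the 8 with the largest difference outside listed regions among those without overlap and with at least 20 usable CpGs, the 8 with the most DMRs, then the widest, and runs of 3 or more, of which there were 0. The called bin falls under the first of these rules.

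Results were recomputed with minimums of 1, 3 and 10 reads, without each animal in turn, without CpGs above 3 times the median coverage summed over animals (51 reads), with equal weight per CpG, without bins within 2 Mb of an end, with other thresholds, with bins shifted by 10 kb, by limma, by edgeR and with the replicate number as a block. The subsets by distance, CpG number and coverage and the removal of the called bin were added after the data had been seen. The software was limma 3.58.1 and edgeR 4.0.16 under R 4.3.3, and numpy 2.4.6, pandas 2.3.3, scipy 1.17.1 and matplotlib 3.10.9 under Python 3.11.15. No sequence is printed because no genome of Oar_v3.1 was used here.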

Additional observations from a re-analysis of the deposited data

How the results depend on the processing

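With 3 animals a stage the permutation test cannot pass 0.05, and levels rest on CpGs covered in every animal. A minimum of 10 reads left 437 bins to test whole and 312 outside listed regions, 3 and 1 of them cluster bins. The lamb minus fetal difference in the gap of cluster bins to other bins was then -0.562 points, against 0.774 points at 5 reads. This difference kept its sign under every other alternative run. The other 4 class differences kept their sign throughout. Outside listed regions the exact permutation p, 0.1 at first, was 0.2 with bins shifted by 10 kb (1.20 points), 0.4 with at least 2 fetal-only LMRs (0.878 points), 0.4 with CpGs over 2 kb from a fetal-only LMR (0.866 points, added after seeing the data) and 0.5 with 10 reads (0.668 points). Leaving out 1 animal gave 1.51 to 2.57 points for whole cluster bins, 0.721 to 1.70 outside listed regions, 0.660 to 0.893 for the gap, 0.448 to 1.41 for neighbouring bins and 1.09 to 1.68 for shared regions.

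Calls depended on the settings. Of all bins, 24 were called whole: 8 with a minimum of 3 reads, 3 with 1 read, 0 with 10 reads, 9 with a difference of at least 10 points, 0 by limma and 15 by edgeR, and 11 to 32 without 1 animal (11 without lamb 1, 14 without lamb 2). The 1 called cluster bin became 0 with minimums of 3, 1 and 10 reads and by limma, and 1 to 2 were called without 1 animal (2 without lamb 3, fetus 2 or fetus 3). Outside listed regions 5 bins were called: 11 with a minimum of 3 reads, 8 with 1 read, 1 with 10 reads, 3 at 10 points, 0 by limma, 3 by edgeR and 4 to 9 without 1 animal (9 without fetus 1, 8 without fetus 2 or lamb 1). Cluster bins called there were 0 to 1 without 1 animal (1 without lamb 3 or fetus 3). The number of cluster bins was 3147 with at least 2 fetal-only LMRs, 60 with at least 4 and 677 with lamb-only LMRs allowed, and 441 with bins shifted by 10 kb. Of 438 differences of single named bins under other settings, 32 moved by over 1 SD and 24 changed sign, none of them of the called bin.

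The replicate numbers do not pair the animals by the labels. Deviations of same-numbered animals correlated at 0.0152, 0.0344 and 0.00951 over whole bins and 0.0170, 0.0365 and 0.0115 outside listed regions, and other pairs at -0.0228 to 0.00822. Each lamb correlated best with the fetus of its own number, though for lamb 3 over whole bins only at 0.00951 against 0.00822 with fetus 1. Deviations were taken from the mean of each stage, which ties these values to one another. Pairing was not tested, and none is read from them. With the number as a replicate block 31 bins were called whole, 1 of them a cluster bin, and 6 outside listed regions, 1 of them a cluster bin.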
